A study of Mus musculus with 8 samples.

Results

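Peripheral nerve reaches the pancreas as bundles of axons wrapped by Schwann cells, and the genes described here are 7 markers of those cells and their nerves: S100b, Sox10, Ngfr, Cdh19, Gfap, Scn7a and Mbp. They were chosen by symbol from the 29968 genes of the deposited count table, and all 7 were found. Their levels were read in 8 orthotopic pancreatic tumors, 4 from WT (C57BL/6J) hosts and 4 from C3-/- hosts that lack complement C3. The comparison asked whether RNA of nerve origin differed between tumors of the 2 host genotypes, and whether the 7 genes rose and fell together from tumor to tumor. Every host was a 12-week-old male mouse that received 250000 KPC FC1245 cells, injected into the pancreas in 50 μL of PBS, with an endpoint on day 14. KPC FC1245 is 1 mouse pancreatic cancer line, isolated from the tumor of an animal whose alleles included LSL-Trp53 R172H/+ and Pdx-1-Cre, so all tumors grew from the same cells. The injected cells keep the C3 gene in both kinds of host, so the genotypes differ in the C3 gene of the host's own cells. No tumor-free pancreas or nerve was analysed here.

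Schwann cells arise from the neural crest under the transcription factor Sox10 and take a myelinating or a nonmyelinating form in the adult. Myelinating cells wrap one large axon in compacted membrane whose proteins include Mbp and Pmp22, a program switched on by Egr2. Nonmyelinating (Remak) cells hold bundles of thin axons and carry Ngfr, Gfap and Cdh19 among their markers, while S100b is made by both forms. After nerve injury, and around tumors that grow along nerves, Schwann cells can shut down myelin genes and turn on a repair program that includes Jun, Ngfr and Gdnf. The sensory and sympathetic axons of the pancreas have their cell bodies in ganglia outside it, while small parasympathetic ganglia lie within the organ. None of the 7 genes belongs to Schwann cells alone: S100b is also made by fat cells and some immune cells, Gfap by pancreatic stellate cells, Ngfr by mesenchymal cells, and the Mbp locus yields golli transcripts outside myelin.

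Each tumor gave between 13.3 and 23.4 M counted read pairs. Levels are given as counts, as CPM (counts scaled to 1 M counts of the TMM-normalized library, for comparing tumors), or as the deposited FPKM values, which are also divided by gene length and serve to compare genes. A floor of 3 counts corresponded to between 0.128 and 0.226 CPM, depending on the tumor, and covers counting error only. C3 itself was detected in all tumors, at 210 to 426 CPM in WT hosts and 100 to 134 CPM in C3-/- hosts, and the groups did not overlap. Epithelial keratins were abundant in every tumor, with Krt8 between 1800 and 3450 CPM, and Epcam lay between 119 and 315 CPM. In edgeR's quasi-likelihood test (Benjamini-Hochberg adjustment over the 16610 genes that passed a filter on low counts), 0 genes had an adjusted p below 0.05. At an unadjusted p below 0.05 there were 848 genes, and DESeq2 called 16 of 20024 genes.

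The 7 genes fell into 3 classes of abundance. S100b, a calcium-binding protein of the Schwann cell cytoplasm, and Mbp, which compacts myelin, had at least 307 and 519 counts in every tumor. Scn7a, an atypical sodium channel of Schwann cells and sensory neurons, and Ngfr, the p75 neurotrophin receptor, were detected in every tumor at lower levels. Gfap (an intermediate filament), Cdh19 (a cadherin of the Schwann cell lineage) and Sox10 did not pass the filter, and Sox10 had no read in 5 of 8 tumors.

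Per gene length, S100b was the most abundant member, with a mean of 15.5 FPKM over the 8 tumors and a range from 11.9 to 20.9. Its mean was above that of 77.8% of the tested genes. Mbp followed at 4.91 FPKM (range 4.03 to 6.13), near the middle of the tested genes, with 49.9% of them below it. Scn7a had 1.59 FPKM (0.579 to 2.41) and Ngfr 0.289 FPKM (0.0962 to 0.563), above 27.4% and 5.45% of tested genes. From S100b down to Ngfr no tumor's value for 1 gene overlapped the range of the next. Below them the order was not resolved: Gfap (mean 0.0788 FPKM), Cdh19 (0.0317 FPKM) and Sox10 (0.0243 FPKM) overlapped one another, and the highest Gfap tumor exceeded the lowest Ngfr tumor.

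**Figure D1:**
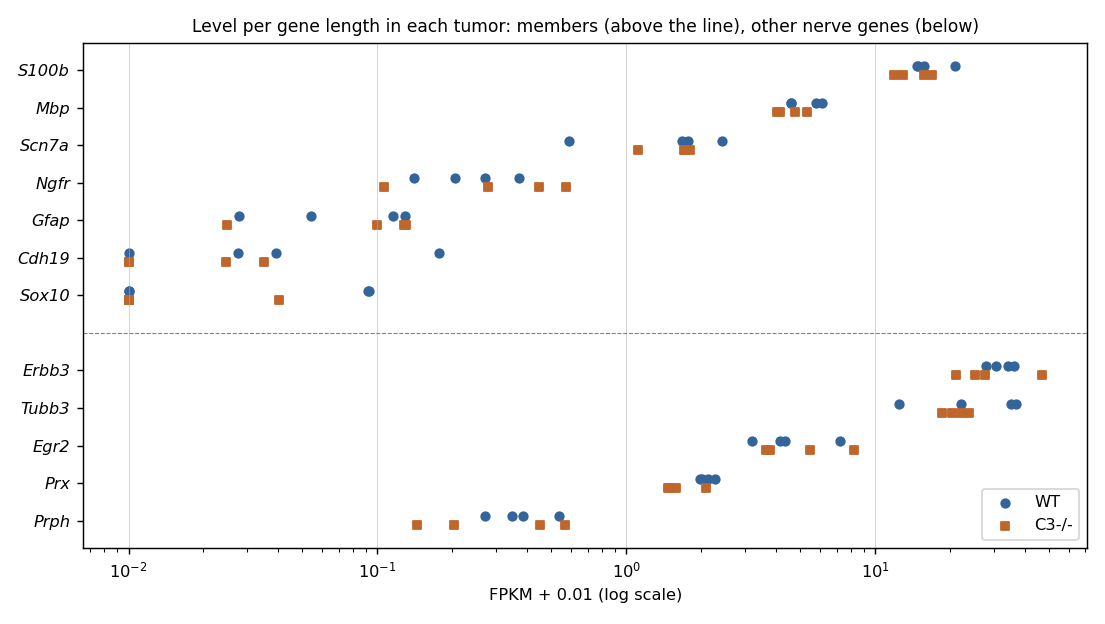
Level per gene length in each tumor for the 7 members (above the dashed line) and for 5 other nerve genes (below it), on a log axis of FPKM + 0.01, where values at the left edge are 0. Each point is 1 tumor, circles for WT and squares for C3-/- hosts. S100b, Mbp, Scn7a and Ngfr occupy separate ranges, whereas Gfap, Cdh19 and Sox10 overlap at or below 0.167 FPKM.

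S100b was found on chromosome 10 of mm39 from 76089687 to 76096993, overlapping Dip2a on the other strand. In WT tumors it had 22.1, 23.4, 31.4 and 22.1 CPM in replicates 1 to 4, and in C3-/- tumors 23.7, 25.4, 19.4 and 17.99 CPM. WT replicate 3 was the highest and C3-/- replicates 3 and 4 the lowest, and the groups overlapped. The means were 24.8 ± 4.48 CPM in WT and 21.6 ± 3.49 CPM in C3-/- tumors (SD, n = 4 each). On the log2 scale C3-/- minus WT was -0.20 (SE 0.17), and edgeR's adjusted p was 0.999. The approximate 95% interval of that difference, from its SE, ran from -0.53 to 0.14.

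Mbp (chromosome 18, 82493271 to 82603762; it overlaps the pseudogene Rpl21-ps8 on the other strand) had 51.9, 49.3, 39.1 and 39.4 CPM in WT replicates 1 to 4. The C3-/- tumors had 34.6, 45.5, 40.5 and 35.7 CPM. WT replicates 1 and 2 were the highest, and the remaining WT tumors lay inside the C3-/- range. The means were 44.9 ± 6.66 and 39.1 ± 5.001 CPM (SD, n = 4 each). The log2 difference was -0.20 (SE 0.15) with an interval from -0.49 to 0.09, and edgeR's adjusted p was 0.999.

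Scn7a, on chromosome 2 from 66503769 to 66615258, varied more. Its CPM in WT replicates 1 to 4 was 12.9, 17.9, 4.29 and 12.3, and in C3-/- tumors 12.6, 8.23, 13.3 and 12.8. The highest and the lowest tumor were both WT, so the groups overlapped throughout. The means were nearly equal, at 11.9 ± 5.62 CPM in WT and 11.7 ± 2.36 CPM in C3-/- tumors (SD, n = 4 each). The log2 difference was -0.01 (SE 0.36; edgeR's adjusted p = 0.999), and its interval ran from -0.72 to 0.69, wide enough to hold a change in either direction.

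Ngfr, on chromosome 11 from 95459644 to 95478561, rested on 6 to 31 counts per tumor. The WT tumors had 20, 6, 12 and 16 counts and the C3-/- tumors 20, 6, 31 and 28, in the order of replicates 1 to 4. C3-/- replicates 3 and 4 were the highest, while replicate 2 was the lowest in both groups. In CPM the means were 0.820 ± 0.337 in WT and 1.19 ± 0.706 in C3-/- tumors (SD, n = 4 each). The log2 difference of 0.52 (SE 0.53; edgeR's adjusted p = 0.999) had an interval from -0.52 to 1.57.

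Gfap, on chromosome 11 from 102778162 to 102791738, had 3, 1, 6 and 12 counts in WT tumors and 11, 9, 1 and 7 in C3-/- tumors. Each group held 1 tumor with a single read, and the ranges nearly coincided. Without a filter on low counts, edgeR gave a log2 difference of 0.23 (SE 0.75; adjusted p = 0.988), an interval too wide (-1.23 to 1.69) to set a direction.

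Sox10 (chromosome 15, 79039108 to 79049440) had 4, 0, 0 and 6 counts in WT tumors and 2, 0, 0 and 0 in C3-/- tumors. Cdh19 (chromosome 1, 110816056 to 110905314) had 2, 1, 0 and 17 counts in WT tumors and 0, 0, 1 and 2 in C3-/- tumors. WT replicate 4 held the most reads of both genes, and all C3-/- tumors were at or under the floor of 3 counts. Summed over tumors, 20 Cdh19 reads in WT stood against 3 in C3-/- tumors, a ratio of 7.40 after allowing for library size, with an exact counting interval from 2.19 to 38.9. Without WT replicate 4 the reads were 3 against 3, and the ratio was 1.72 (0.231 to 12.9). For Sox10 the ratio was 5.55 (1.18 to 52.1), and 3.44 (0.493 to 38.1) without that tumor. These intervals cover counting error only, not the spread between tumors. In edgeR without a filter, the adjusted p was 0.810 for both genes.

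**Figure D2:**
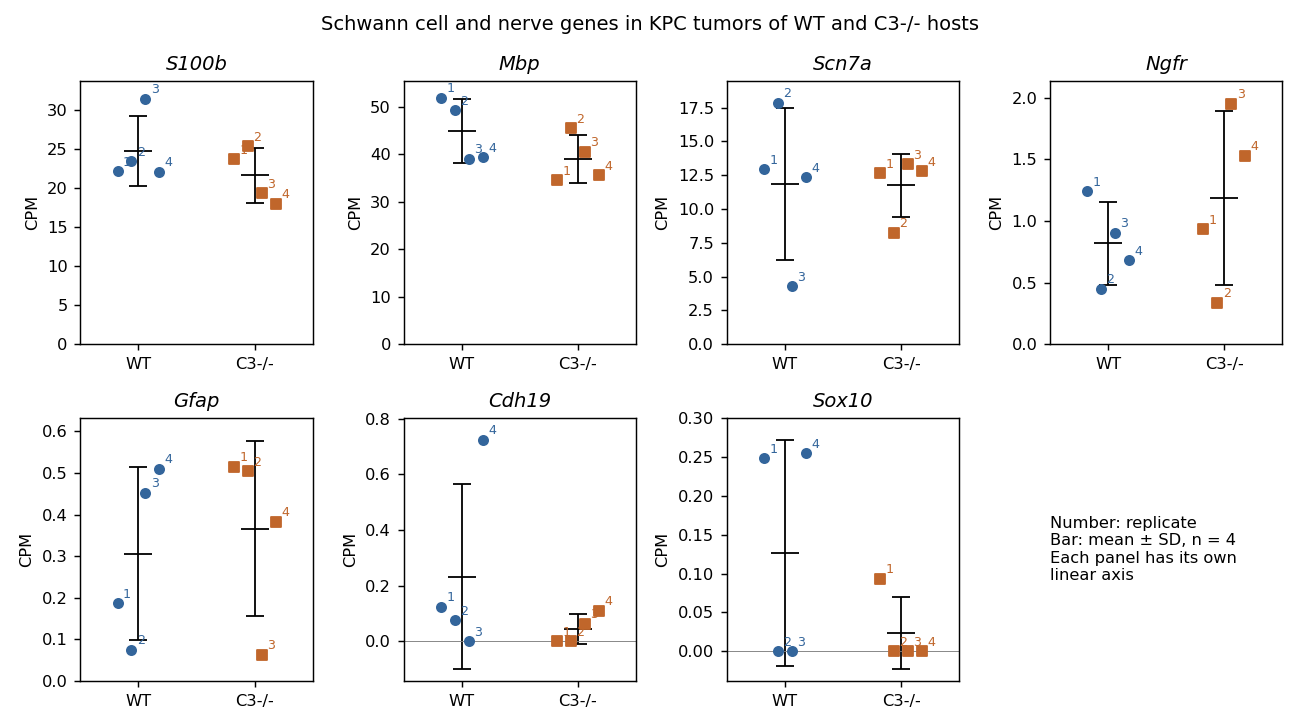
CPM of each member by host genotype, 1 panel per gene with its own linear axis. Points are tumors, numbered by replicate, and bars give the mean ± SD (n = 4). The genotypes overlap in every panel, and the spread in Cdh19 comes from WT replicate 4 at 0.723 CPM.

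Between genotypes, 0 of the 4 members tested in edgeR (S100b, Ngfr, Scn7a and Mbp) were called at an adjusted p below 0.05, where 0% of all tested genes were. DESeq2 called 0 of the 5 members for which it gave an adjusted p, against 0.0799% of all genes. At an unadjusted p below 0.05, edgeR gave 0 of the 4, against 5.11% of tested genes, and the smallest unadjusted p was that of Mbp (0.205). The groups failed to overlap for 0 of the 4 members, against 3.73% of tested genes. The median log2 fold change of the 4 was -0.11, and that of all tested genes -5.84e-05. In bulk tumor RNA, fewer cells of a type and less RNA per cell cannot be told apart, so an equal level does not show equal numbers of Schwann cells.

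The spread over tumors differed among the members. The coefficient of variation over all 8 tumors was 17.6% for S100b and 15.0% for Mbp, below the median of tested genes (21.98%). It reached 33.8% for Scn7a and 54.6% for Ngfr, and 75.0% and 92.5% of tested genes varied less. Different tumors led for different members. WT replicate 1 was highest for Mbp, WT replicate 2 for Scn7a and WT replicate 3 for S100b. WT replicate 4 was highest for Sox10 and Cdh19, C3-/- replicate 1 for Gfap and C3-/- replicate 3 for Ngfr. For Sox10 that lead was slight, at 0.255 CPM in WT replicate 4 against 0.249 CPM in WT replicate 1.

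The members did not rise and fall together detectably. Of the 21 pairs, 13 had a positive and 8 a negative Pearson r of log2 CPM over the 8 tumors, with a median of 0.0552. After Benjamini-Hochberg adjustment over the 21 pairs, 0 had an exact two-sided permutation p below 0.05 for Pearson's r and 0 for Spearman's rho, and 1 pair passed unadjusted for each measure. The design allows a p as small as 4.96e-05 for a pair without tied values, and not as small for pairs with Sox10 or Cdh19, which are tied at 0 counts in 5 and 3 tumors.

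The strongest relation by Pearson's r was negative: S100b and Scn7a had an r of -0.755 (exact permutation p = 0.0399, adjusted p = 0.719). Their rho was -0.571 (exact permutation p = 0.151, adjusted p = 0.604), and by rho Gfap and Scn7a were the strongest pair. Leaving out the 2 tumors farthest from the median of S100b brought r to -0.395. WT replicate 3 was highest for S100b and lowest for Scn7a, and without that tumor alone r was -0.296. S100b and Mbp, the most abundant members, had an r of 0.134 (exact permutation p = 0.754, adjusted p = 0.970) and a rho of 0.0238 (exact permutation p = 0.977).

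The highest positive r was that of Sox10 and Cdh19, at 0.648 (exact permutation p = 0.0685, adjusted p = 0.719; rho 0.559, exact permutation p = 0.173, adjusted p = 0.604). It was 0.290 without WT replicate 4, which held the most reads of both genes, and -0.433 without the 2 tumors farthest from the median of Sox10. Gfap and Scn7a had an r of -0.528 (exact permutation p = 0.147, adjusted p = 0.776) and a rho of -0.738 (exact permutation p = 0.0458, adjusted p = 0.604).

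**Figure D3:**
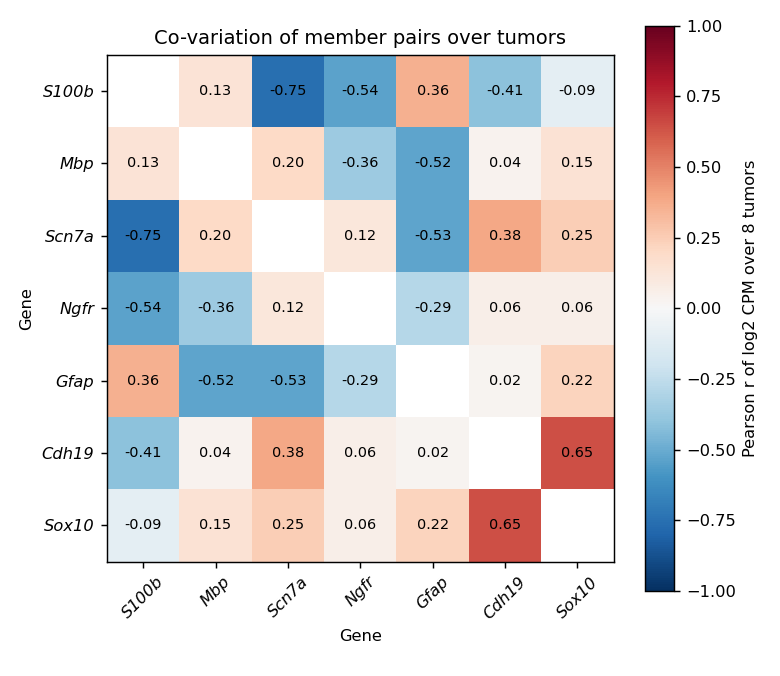
Pearson r of log2 CPM over the 8 tumors for each of the 21 pairs of members, printed in the cells and colored from -1 (blue) to 1 (red). Positive and negative values mix, from -0.755 for S100b and Scn7a to 0.648 for Sox10 and Cdh19.

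A mean of the 4 tested members, each scaled to unit spread over tumors, ranged from -0.291 in C3-/- replicate 4 to 0.568 in WT replicate 1. Mbp had an r of 0.773 to this mean, Scn7a 0.446, Ngfr 0.171 and S100b -0.127, each being itself part of the mean. Of the members outside it, Gfap had an r of -0.778, Sox10 0.283 and Cdh19 0.0545. The genes outside the set most like the mean over the 8 tumors were Tfip11 (r = 0.927), Gm48129 (0.908), Mief1 (0.902), Gm16536 (0.895), Pex11a (0.885), Gm12418 (0.884), Pipox (0.882), Gm14221 (0.876), Gm5340 (0.875) and Gm7964 (0.873). Tfip11 encodes a splicing factor, Mief1 a mitochondrial dynamics protein, and Pex11a and Pipox peroxisomal proteins. No gene of the myelin or Schwann cell lists is among these 10, which are the highest of 16610 tested genes and are given as a description.

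The wider myelin program was then read from a list of 16 genes, of which 15 were in the table and 11 were tested. In edgeR 0 were called, 0 passed at an unadjusted p below 0.05, and DESeq2 called 0. The log2 fold change was positive for 4 and negative for 7, with a median of -0.15. The myelin genes highest per length were Mal (32.8 FPKM), Ncmap (13.9 FPKM) and Cnp (9.51 FPKM), and Mal is also made by epithelial cells. Egr2, the transcription factor of myelination that immune cells make as well, had 4.9998 FPKM (3.20 to 8.25). Prx, a scaffold protein of myelinating Schwann cells, had 1.87 FPKM (1.46 to 2.26) and the smallest unadjusted p of the list (log2 fold change -0.33, SE 0.18, unadjusted p = 0.0876, adjusted p = 0.971).

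Skeletal muscle RNA was uneven over the tumors, and several sparse nerve genes were set beside it. Acta1, the actin of skeletal muscle, numbered 12294, 7, 1 and 30612 reads in the WT tumors and 22649, 7, 10093 and 27427 in the C3-/- tumors, in replicate order. WT replicates 2 and 3 and C3-/- replicate 2 stood apart with almost none. Because the tumors fall into separate clusters in Acta1, no correlation is given. Apod, a lipocalin of nerve sheath and other connective tissue that was picked out after its values were seen, had 175, 64, 15 and 1209 counts in WT and 185, 31, 164 and 240 counts in C3-/- tumors. It was lowest in the same 3 tumors and highest in WT replicate 4. Kcna1 and Cldn19, a potassium channel of myelinated axons and a junction protein of myelinating Schwann cells, also picked out afterwards, peaked in WT replicate 4 with 12 and 9 counts and had at most 3 elsewhere. S100b and Mbp were not low in those 3 tumors. S100b stood at 23.4, 31.4 and 25.4 CPM in the 3 tumors nearly free of muscle RNA and 17.99 to 23.7 CPM in the other 5. Mbp stood at 49.3, 39.1 and 45.5 CPM in those 3 tumors, inside its range over the other 5 (34.6 to 51.9 CPM). The part of muscle tissue and of its nerves in the reads of Apod, Kcna1, Cldn19 and Cdh19 was not tested.

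**Figure D4:**
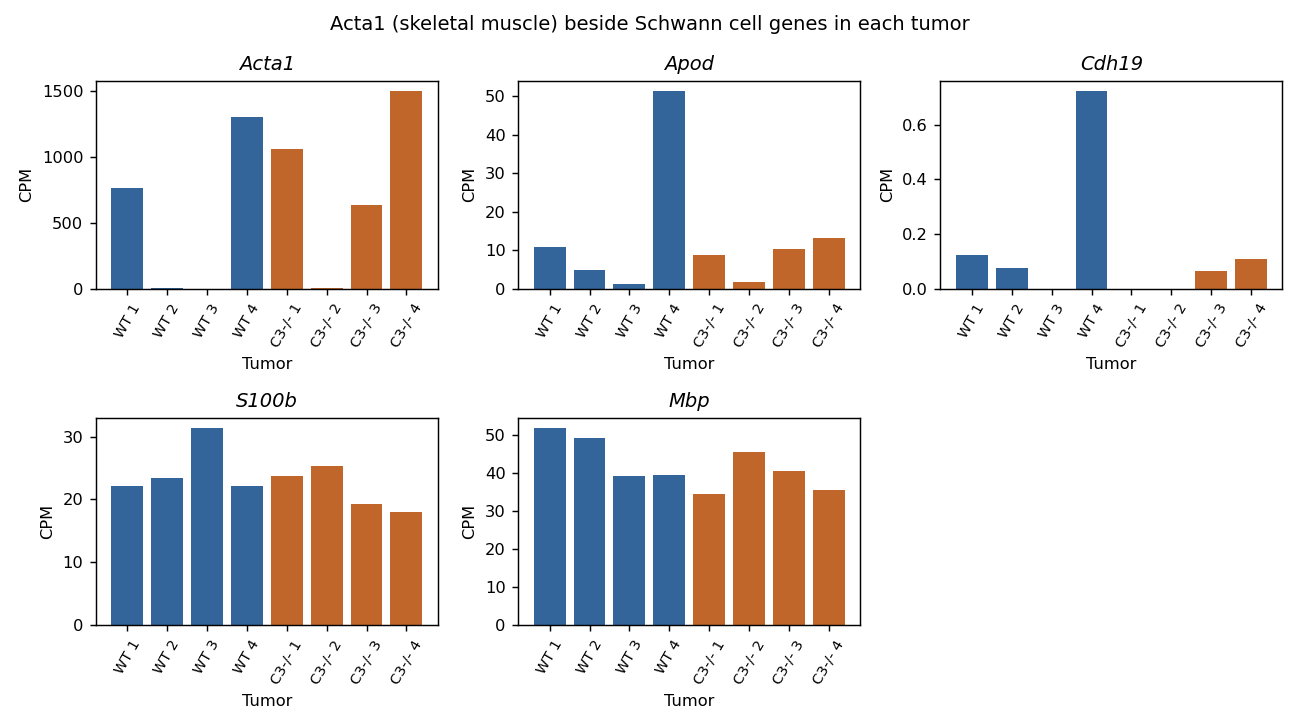
CPM of Acta1 (skeletal muscle) and of 4 Schwann cell genes in each tumor, as bars from 0, blue for WT and orange for C3-/- hosts, each panel on its own linear axis. Acta1 and Apod are lowest in WT 2, WT 3 and C3-/- 2, while S100b (17.99 to 31.4 CPM) and Mbp (34.6 to 51.9 CPM) are not low in those 3 tumors.

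Genes of the Schwann cell lineage beside the members were described from a list of 20, all in the table and 14 tested. In edgeR and DESeq2 0 were called, and 0 passed at an unadjusted p below 0.05 in edgeR. The log2 fold change was positive for 7 and negative for 7, with a median of -0.02. Erbb3, the neuregulin receptor on which Schwann cells depend and which epithelial tumor cells also carry, was the highest per length at 31.2 FPKM (21.2 to 46.7), with 2246 to 5090 counts. Gpm6b (9.52 FPKM), a membrane proteolipid, and Ncam1 (5.47 FPKM), an adhesion molecule of nonmyelinating Schwann cells and neurons, followed. Gpm6b had the smallest unadjusted p of the list, with 48.5 ± 6.91 CPM in WT and 59.2 ± 5.54 CPM in C3-/- tumors (SD, n = 4 each; log2 fold change 0.29, SE 0.14, unadjusted p = 0.0607, adjusted p = 0.971 in edgeR). Of the 20 genes, 6 had no read in at least 1 tumor.

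For the repair program, 12 genes were listed and 11 tested. edgeR and DESeq2 called 0, and 1 (Lif) of the 11 passed at an unadjusted p below 0.05, against 5.11% of all tested genes. Clcf1 (36.6 FPKM), Jun (34.0 FPKM) and Lif (6.97 FPKM) were the highest per length, and all 3 are also made by many other cells. Lif, a cytokine of the interleukin-6 family, had 24.8 ± 6.30 CPM in WT and 36.4 ± 6.26 CPM in C3-/- tumors (SD, n = 4 each; log2 fold change 0.55, SE 0.20, unadjusted p = 0.0179, adjusted p = 0.960), with overlapping groups. The median log2 fold change of the list was 0.14, with 8 positive and 3 negative.

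Neuronal and axonal transcripts ranged from abundant to barely detected. Of 28 listed genes 21 were in the table and 9 were tested, and 10 of the 21 had no read in at least 1 tumor. edgeR and DESeq2 called 0, and 1 gene (Slc18a2, a monoamine transporter that mast cells also use, named after its values were seen) of the 9 passed at an unadjusted p below 0.05, against 5.11% of all tested genes. The log2 fold change was positive for 1 and negative for 8, with a median of -0.19. Tubb3, a neuronal tubulin that many carcinoma cells also make, was the highest at 23.9 FPKM (12.5 to 36.9), followed by Uchl1 (6.37 FPKM) and Calca (3.80 FPKM), which encodes a peptide of sensory nerves. Prph, a filament of peripheral neurons, had 12, 9, 7 and 25 counts in WT and 24, 7, 14 and 5 counts in C3-/- tumors. The neurofilament gene Nefl and the sympathetic enzyme gene Th, named after their values were seen, had at most 5 and 2 counts in any tumor.

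Ligands and receptors that link nerves to Schwann cells were read from 20 listed neurotrophin, neuregulin and GDNF family genes, 19 of them in the table and 14 tested. edgeR and DESeq2 called 0, 0 had an unadjusted p below 0.05 in edgeR, and 6 had a positive and 8 a negative log2 fold change (median -0.07). Sort1 (20.4 FPKM), which binds proneurotrophins together with Ngfr, and Erbb2 (20.4 FPKM), the partner of Erbb3, were the highest, and both are widely expressed in epithelium. Of 6 perineurial genes 5 were tested and 0 called by either tool, with 0 at an unadjusted p below 0.05 and a median log2 fold change of -0.17. The highest of them, Krt19 (564.7 FPKM), Slc2a1 (45.4 FPKM) and Itgb4 (36.9 FPKM), are epithelial genes as well.

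Lists of other tissues were set beside these because several share markers with Schwann cells or carry nerve of their own. The summed level of 11 skeletal muscle genes was 15.0 to 3604 CPM in WT and 23.7 to 3269 CPM in C3-/- tumors. That of 8 neuromuscular junction genes was 84.9 to 105 and 83.7 to 99.2 CPM, most of it from Chrnb1 (66.4 to 83.5 CPM), an acetylcholine receptor subunit. The other 7 junction genes summed to 19.2, 7.46, 11.5 and 23.4 CPM in WT and 17.2, 8.96, 15.7 and 25.4 CPM in C3-/- tumors, lowest in the 3 tumors nearly free of Acta1. The 8 adipocyte genes ranged from 87.8 to 733 CPM in WT and 59.3 to 246.6 CPM in C3-/- tumors, and all 8 were highest in WT replicate 2, where S100b was 23.4 CPM. The 4 melanocyte genes in the table, which like Schwann cells come from the neural crest, summed to 6.16 to 10.4 and 6.22 to 9.13 CPM. The 8 stellate cell and pericyte genes summed to 280.6 to 942.8 and 285.6 to 929.4 CPM. Their range came from Des, a filament of muscle as well (27.6 to 642 and 20.8 to 573 CPM), and the other 7 summed to 253 to 301 and 253 to 357 CPM. Ranges were 168.1 to 477.1 and 41.4 to 1602 CPM for the 10 acinar genes, 0.498 to 103.7 and 0.567 to 4.65 CPM for the 10 islet genes, and 211.6 to 242.7 and 161.1 to 342.9 CPM for the 10 leukocyte genes. In these 8 lists edgeR and DESeq2 called 0 of the genes tested. At an unadjusted p below 0.05 edgeR gave 4 of the 8 leukocyte genes tested (3 higher and 1 lower in C3-/- tumors, against 5.11% of all tested genes) and 0 of the tested genes in the other 7 lists. The genotypes did not overlap for 2 of these 8 and for 1 of the 7 neuromuscular junction genes tested (Dok7, a muscle kinase adaptor, named after its values were seen, at 1.88 to 3.15 CPM in WT and 3.39 to 4.03 CPM in C3-/- tumors), against 3.73%. Among genes below the filter, the fit without a filter gave 6 of 9 islet genes, 1 of 2 adipocyte genes and 1 of 2 melanocyte genes at an unadjusted p below 0.05, against 4.47% of all genes in that fit. All 10 islet genes were highest in WT replicate 2, where Ins2, named after its values were seen, had 425 counts against at most 1 in the other WT tumors and 0 to 21 in C3-/- tumors. Their part in the levels of the 7 genes was not tested.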

How the data were processed

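Poly-A selected RNA of 8 tumors was sequenced, and the authors deposited raw counts per gene together with FPKM values (fragments per kilobase of gene and M fragments, here the authors' size-factor-normalized counts divided by gene length and 1 common constant). The paper names STAR and HTSeq, while the submitters' processing notes name HISAT2 2.0.5 and DESeq2 1.20.0. The build was mm39, and the strand setting is not given in the sources used here. The authors' normalized counts, group means, fold changes and p-values were not used.

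Counts were tested with edgeR 4.0.16 in R 4.3.3 (filterByExpr with a minimum count of 10, TMM, glmQLFit and glmQLFTest, without the replicate number as a block). DESeq2 1.42.0 and limma-voom (limma 3.58.1) were alternatives. Members below the filter were taken from the same fit without a filter. Correlations were computed on log2 CPM (prior count 2), with exact permutation over the 8 tumors (scipy 1.17.1). Both procedures were tested on simulated data. Total counts were 13.3 to 23.4 M per tumor. Counts are read pairs without molecular identifiers, so the exact intervals of count ratios cover counting error only, while intervals of log2 differences come from edgeR's SE and include the spread between tumors. The labels call the 4 tumors of a group biological replicates. No tumor repeated another of its genotype, since the 12 pairs within genotypes gave a chi-square per gene of at least 15.3. Pairs across genotypes were not compared in this way.

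The 7 members and the 14 other lists (173 genes, 162 in the table, 116 tested) were chosen with earlier results of these data known. The genes named were the members, the 3 tested genes with the highest mean FPKM in each list (of the lists of other tissues only Acta1, Chrnb1, Des, Ctrb1 and Prss2 are named here by this rule), any gene called by edgeR or DESeq2, and Erbb3, Egr2, Prx, Tubb3 and Prph. Some genes that this rule names are not reported here. The 10 tested genes with the highest r to the members' mean were also named. C3, Krt8 and Epcam serve as checks of the tumors, and other genes are said to be picked after their values were seen. Coordinates are those of the deposited table. They differ slightly from GENCODE vM39 for the 7 members. Results under each alternative, and with each tumor left out in turn, are in the closing section.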

Additional observations from a re-analysis of the deposited data

Results flagged for a closer look

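Among the 7 members, 7 other nerve genes and 6 nerve lists, each read in both genotypes (40 groups of 4 tumors), 3 groups held a tumor far from the other 3 by Dixon's ratio. Chance flags about 1 group in 20, or 2 of these 40. S100b stood at 4.98 log2 CPM in WT replicate 3, against 4.47 to 4.56 in the other WT tumors. Scn7a stood at 3.06 log2 CPM in C3-/- replicate 2, against 3.67 to 3.75 in the other C3-/- tumors. Sox10 stood at -2.26 log2 CPM in C3-/- replicate 1, where 2 reads were counted, against -3.12 in the other C3-/- tumors, which had none. With the other 3 at 0, a single read is enough to set a tumor apart in this way, so the Sox10 value adds nothing to the count of tumors that stand apart.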

How the results depend on the processing

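The count of members called between genotypes was 0 in all 15 alternatives (DESeq2, DESeq2's size factors, no filter, at least 10 counts in every tumor, limma-voom, the skeletal muscle level as a covariate, the replicate block and 8 fits without 1 tumor). The count of listed genes called was 0 in these alternatives except without C3-/- replicate 1, where it was 2 (the acinar genes Ctrb1 and Prss2), so the range over fits without 1 tumor was 0 to 2. The log2 fold changes of S100b (-0.28 to -0.06), Ngfr (0.18 to 0.83) and Mbp (-0.28 to -0.13) kept their sign in every alternative that gave a value. That of Gfap turned to -0.066 without WT replicate 2 (range -0.066 to 0.63 over fits without 1 tumor). That of Scn7a, -0.01, changed sign in 6 of 15 alternatives, to 0.10 in limma-voom, 0.10 with the replicate block, and between -0.29 and 0.24 when 1 tumor was left out. The cause was not tested. Sox10 and Cdh19 have no fitted fold here because the C3-/- tumors were at the floor, and Ngfr and Gfap gave none with at least 10 counts in every tumor. Deviations of same-numbered tumors correlated at -0.03, 0.49, -0.36 and 0.59 for replicates 1 to 4. Differently numbered tumors were not compared, so these values do not settle whether the numbers pair the tumors. The replicate block changed no member's call (0 genes of 16610 called). The count of correlated pairs was 0 in 13 alternatives, and of 3 pairs followed because they had the smallest p, only Sox10 and Cdh19 changed sign (-0.433 without the 2 farthest tumors). Counts of 0 to 31 limit Sox10, Cdh19, Gfap and Ngfr to large differences.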
